A study of Mus musculus with 30 samples.

Results

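The RNA of mouse muscle taken 4 days after volumetric muscle loss was compared with that of uninjured muscle, in 12 libraries of the 30 in the series. The groups were male day 4, female day 4, male uninjured and female uninjured, with 3 libraries each. They were chosen by their sample labels, and the 6 libraries of a time point were used together. The tissue was the tibialis anterior, a muscle of the shin that lifts the foot. Volumetric muscle loss is an injury in which a volume of muscle is removed. The labels give neither age nor strain nor any added agent. Nor do they say whether each library was a separate animal, or whether uninjured muscle was from untouched mice or the other leg. The p-values therefore measure only the spread among these libraries, which may be technical. The files listed 26264 genes, of which 17136 passed the filter on low counts and were tested. Total counts were 47936072 to 57277336 per library at day 4 and 40757683 to 48860849 in uninjured muscle.

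After a muscle is damaged, dead fibre is cleared by phagocytes, muscle stem cells divide and fuse, and the new fibres begin with embryonic and fetal forms of many proteins before they switch to adult ones. A muscle fibre is a single very large cell with its own forms of common enzymes, pumps and contractile proteins. At its nerve contact it holds receptors for acetylcholine, the signal from motor nerve to muscle. The receptor is a ring of alpha, beta, delta and a variable subunit. The gamma subunit fills that place in fetal and in denervated fibres, and the epsilon subunit in innervated adult fibres.

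Levels are given as CPM, counts per 1000000 after TMM scaling (a factor per library that allows for its most abundant genes). Changes are log2 fold changes of day 4 over uninjured muscle ± SE, with sexes weighted equally, and levels after ± are SD with n = 6 libraries unless a sex is named. Called genes had an adjusted p below 0.05 by the quasi-likelihood test of edgeR. In all, 6864 genes (40.1%) were called higher at day 4 and 5662 (33.0%) lower, and in 9752 (56.9%) the 6 day 4 libraries did not overlap the 6 uninjured ones. The counts of members below are to be read against these shares. At day 4 the 10 most abundant genes held 5.56 to 10.3% of a library's counts, against 25.7 to 32.3% in uninjured muscle. The scaling set the centre of the changes, as TMM put the median gene at 0.17 and library size alone put it at 1.47. With library size alone 12603 genes were called higher and 1482 lower. The direction of a small change, and the balance of higher and lower members in a list, therefore rest on the scaling. For many lists the counts under library size alone are given beside the split. Lists without such counts could move too. Phagocytosis went to 23 higher and 0 lower, the lysosome list to 30 and 0 and eicosanoids to 21 and 0. Brakes on inflammation went to 19 and 0, and hyaluronan and chondroitin sulfate to 20 and 0. Excitation-contraction coupling went to 2 and 17, and muscle fibre markers to 1 and 6.

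The 6 day 4 libraries were not alike in muscle fibre content. The library labelled female day 4 replicate 2 had a mean log2 CPM of 8.07 over 10 muscle fibre markers, against 10.13 to 10.77 in the other day 4 libraries and 11.92 to 13.19 in uninjured muscle. It was also below the other day 4 libraries in excitation-contraction coupling genes (6.88 against 7.77 to 8.22) and above them in actin cytoskeleton genes (8.43 against 7.93 to 8.07). Leaving it out moved the count of called members of a gene list by at most 2 in either direction. It turned the median of 1 list, angiogenic signalling, which is given below. Xist and the Y-linked Ddx3y fitted the labelled sex in all 12 libraries. In bulk RNA, fewer fibres and less RNA per fibre cannot be told apart.

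**Figure D1:**
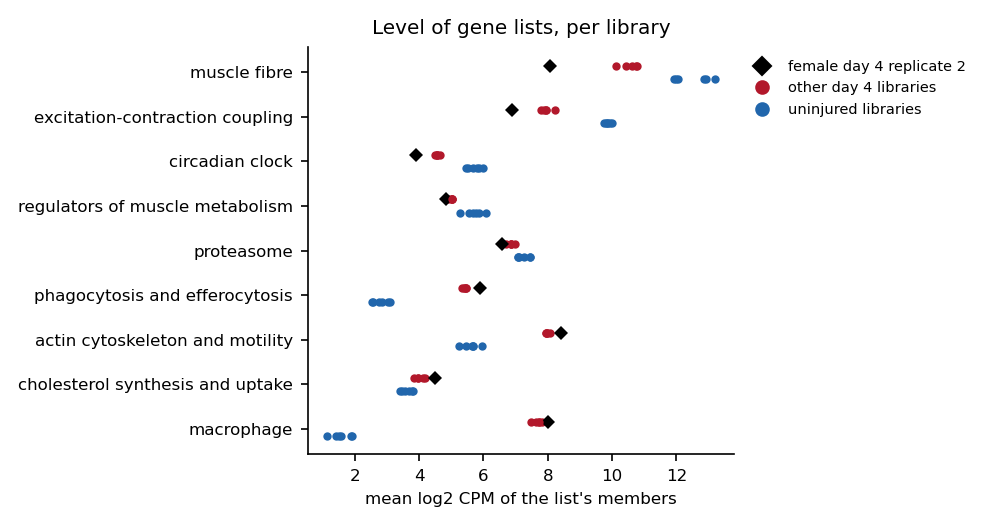
Mean log2 CPM (horizontal axis) of the members of 9 gene lists, 1 point per library. Female day 4 replicate 2 (black diamonds) lay below the other 5 day 4 libraries (red) in muscle fibre genes, at 8.07 against 10.13 to 10.77, and all 6 lay below the uninjured libraries (blue). In macrophage genes all 6 day 4 libraries lay above the uninjured ones.

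Transcripts of the receptor's subunits changed unequally, with the fetal subunit far higher and the adult one lower at day 4. The 250 bases before the start of the fetal gamma subunit gene Chrng and of the adult epsilon subunit gene Chrne are shown first, since these genes moved in opposite directions and encode the alternative subunits of 1 place in the receptor. They are RefSeq sequences on GRCm38.p6, at chr1:87205561-87205810 (plus strand) and chr11:70619195-70619444 (minus strand). Capitals mark CAGCTG, an E-box that myogenic regulators can bind, and CCGGAA (read on either strand), the N-box known from genes active at the synapse. They do not overlap.
Chrng: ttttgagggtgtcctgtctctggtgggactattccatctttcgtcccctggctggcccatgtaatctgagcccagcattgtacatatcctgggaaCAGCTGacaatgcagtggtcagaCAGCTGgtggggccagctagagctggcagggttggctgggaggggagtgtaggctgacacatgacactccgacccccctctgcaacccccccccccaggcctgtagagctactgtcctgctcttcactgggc
Chrne: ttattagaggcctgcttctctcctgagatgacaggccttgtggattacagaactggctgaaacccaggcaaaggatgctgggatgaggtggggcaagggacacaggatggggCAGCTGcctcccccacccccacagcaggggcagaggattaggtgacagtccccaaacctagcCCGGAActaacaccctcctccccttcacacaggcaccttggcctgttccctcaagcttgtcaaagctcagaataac
The Chrng sequence held 2 matches of CAGCTG and none of CCGGAA, and the Chrne sequence held 1 of each. Other forms of the E-box were not searched for. Of 27025 mouse promoters of the same length, 12.8% held CAGCTG and 12.2% held CCGGAA. Chrna1 held 2 matches of CAGCTG and none of CCGGAA, and Chrnb1 held neither. A match of letters describes the sequence and shows no binding.

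Chrng had 153 to 234 CPM (median 211) at day 4 and 0.0833 to 0.620 CPM (median 0.245) in uninjured muscle. All 6 day 4 libraries were far above every uninjured one, with a change of 9.59 ± 0.43 (adjusted p = 3.79e-14). Chrne went the other way, with 0.209 to 12.2 CPM (median 8.87) at day 4 and 27.0 to 117 CPM (median 44.8) in uninjured muscle. Its change was -2.74 ± 0.47 (adjusted p = 1.31e-05), and the groups did not overlap. Its lowest value, 0.209 CPM, was that of female day 4 replicate 2, and without that library the change was -2.47. The shared subunits rose unequally. Chrna1, the alpha subunit that binds acetylcholine, had 431 to 619 CPM (median 473) at day 4 and 22.1 to 39.7 CPM (median 32.9) in uninjured muscle (3.95 ± 0.36). The delta subunit gene Chrnd had 66.0 to 98.1 CPM (median 84.4) at day 4 and 2.48 to 11.2 CPM (median 6.41) in uninjured muscle (3.76 ± 0.34). Chrnb1, the beta subunit, rose by only 0.86 ± 0.22, and its groups overlapped (115 to 182 CPM (median 148) at day 4 and 62.6 to 119 CPM (median 76.1) in uninjured muscle).

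**Figure D2:**
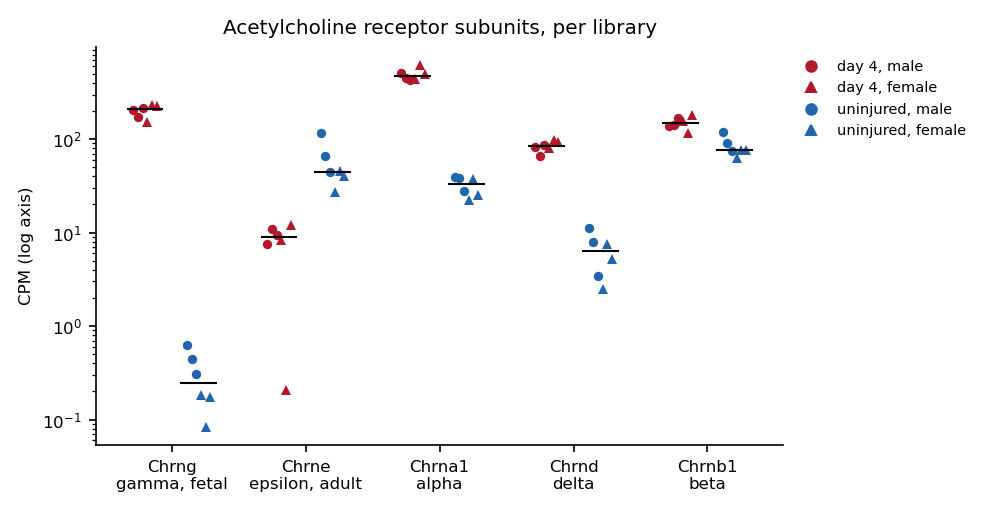
CPM (log axis) of the 5 acetylcholine receptor subunit genes of muscle in each library, with day 4 in red and uninjured muscle in blue, circles for males and triangles for females. Black lines are medians. Chrng lay above 150 CPM in every day 4 library and below 1 CPM in every uninjured one, and Chrne lay lower at day 4, lowest in female day 4 replicate 2.

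Of the 24 tested genes of the neuromuscular junction list 11 were higher and 6 lower (21 higher and 3 lower with library size alone). Scn4a, the sodium channel of adult skeletal muscle, had 33.5 to 109 CPM (median 100.1) at day 4 and 334 to 627 CPM (median 504) in uninjured muscle (-2.46 ± 0.40). Runx1, a transcription factor known to be induced in denervated muscle, had 90.0 to 135 CPM (median 108) at day 4 and 0.791 to 2.81 CPM (median 1.54) in uninjured muscle (6.14 ± 0.35). The cell adhesion gene Ncam1 rose by 4.35 ± 0.31 and the kinase Musk, which organises the receptors at the synapse, by 2.45 ± 0.30. The neuregulin ligand gene Nrg1 had 2.02 ± 0.678 CPM at day 4 and only 2 counts in all uninjured libraries. The ratio was 145.5-fold (40.2 to 1204). The interval allows for counting error only, with every count taken as independent. Reads seem to be counted in pairs, so it is likely too narrow, as are the other such intervals below. The receptor subunits for Nrg1, Erbb2 and Erbb3, rose by 2.19 ± 0.19 and 2.37 ± 0.18. Rapsn, which anchors the receptors, changed by -0.95 ± 0.18, a fall that turned into a rise with library size alone (0.35). The synaptic organisers Agrn (-0.15 ± 0.24), Lrp4 (0.29 ± 0.21) and Dok7 (-0.09 ± 0.22) were not called, but Agrn (1.16) and Dok7 (1.22) were called higher with library size alone. The genes of this list named here beside Chrng, Runx1 and Nrg1 were chosen for their role after their values were seen.

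Many enzymes and pumps exist as a form made chiefly in muscle and another made in most cells. Of 29 such pairs tested, the muscle form was lower at day 4 in 28 and the widespread form higher in 24. Both held in 23 pairs. These counts were made with TMM and rest on it. With library size alone, for example, the muscle form Cav3 turned to 0.81, and the widespread forms Slc16a1 (0.73) and Acaca (1.19) were called higher. Members of other pairs with small changes could move too. The log2 ratio of muscle to widespread form fell in all 29, with no overlap between the 6 day 4 and the 6 uninjured libraries. Such a ratio within a library does not depend on the scaling. The 24 widespread forms include genes of every cell type in the tissue, and the ratio does not say which cells changed.

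The pair with the largest shift was creatine kinase, which buffers ATP. The muscle form Ckm had 321 to 2567 CPM (median 1892) at day 4 and 19790.0 to 37100.0 CPM (median 29420.0) in uninjured muscle (-4.06 ± 0.55), and the brain form Ckb had 185 to 259 CPM (median 219) at day 4 and 11.9 to 22.0 CPM (median 15.9) in uninjured muscle (3.73 ± 0.28). The log2 ratio of Ckm to Ckb was 2.74 at day 4 and 10.75 in uninjured muscle. Glycogen phosphorylase, which releases glucose from glycogen, followed. Its muscle form Pygm changed by -3.87 ± 0.45 and its liver form Pygl by 3.60 ± 0.32. Of the further steps of glycolysis, phosphoglycerate mutase shifted from Pgam2 (-3.46 ± 0.41) towards Pgam1 (2.69 ± 0.30), phosphofructokinase from Pfkm (-3.08 ± 0.47) towards Pfkp (1.81 ± 0.21), enolase from Eno3 (-3.20 ± 0.40) towards Eno1 (1.54 ± 0.23) and hexokinase from Hk2 (-2.30 ± 0.37) towards Hk1 (2.14 ± 0.18). Glucose uptake followed the same way, with the insulin-responsive transporter Slc2a4 at -3.05 ± 0.46 and the basal transporter Slc2a1 at 1.15 ± 0.19.

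The machinery of translation showed the same exchange. Rpl3l, a muscle form of ribosomal protein L3, had 4.43 to 125 CPM (median 109) at day 4 and 925 to 1780.0 CPM (median 1432) in uninjured muscle (-3.95 ± 0.56), while Rpl3 had 436 to 604 CPM (median 440.2) at day 4 and 64.5 to 89.5 CPM (median 79.3) in uninjured muscle (2.63 ± 0.28). The log2 ratio of Rpl3l to Rpl3 was -2.90 at day 4 and 4.14 in uninjured muscle. The elongation factor Eef1a2, of muscle and nerve, changed by -2.90 ± 0.43 and Eef1a1 by 2.94 ± 0.32. The log2 ratio of Eef1a2 to Eef1a1 was -3.64 at day 4 and 2.37 in uninjured muscle. Reads of Eef1a1, Rpl3 and Actb may be shared with processed copies of these genes, whose handling is not given in the sources used here.

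A calcium pump and structural proteins were exchanged too. Atp2a1, the fast-fibre pump that returns calcium to the sarcoplasmic reticulum, had 1430.0 to 9827 CPM (median 7337) at day 4 and 48890.0 to 104400.0 CPM (median 83190.0) in uninjured muscle (-3.51 ± 0.48). Atp2a2, the pump of slow fibres, heart and other cells, had 206 to 359 CPM (median 273) at day 4 and 29.3 to 87.7 CPM (median 35.1) in uninjured muscle (2.72 ± 0.27). Actin changed by -2.66 ± 0.50 for the skeletal Acta1 and by 2.15 ± 0.24 for the widespread Actb. Dystrophin, Dmd, which ties the fibre's cytoskeleton to the matrix, changed by -1.38 ± 0.28 and its relative utrophin, Utrn, by 0.42 ± 0.11. The fall of Dmd was close in size to the shift of the median gene between the scalings (0.17 and 1.47). The smallest shift was that of caveolin, which shapes membrane pits. Cav3 changed by -0.50 ± 0.19, a direction that turned with library size alone (0.81), and Cav1 was not called (0.40 ± 0.18).

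A few pairs departed from the pattern. In cytochrome oxidase subunit 7A both Cox7a1 (-3.50 ± 0.43) and Cox7a2 (-1.95 ± 0.32) fell, while subunits 6A and 8 behaved like most pairs (Cox6a2 at -3.38 ± 0.43 with Cox6a1 at 1.31 ± 0.25, and Cox8b at -3.28 ± 0.39 with Cox8a at 1.32 ± 0.20). Cpt1b, the muscle enzyme that admits fatty acids to mitochondria, was the muscle form that was not called. It had 0.333 to 1.06 CPM (median 0.640) at day 4 and 0.781 to 2.61 CPM (median 0.958) in uninjured muscle, and Cpt1a rose by 2.59 ± 0.19. Cpt1b was the lower form even in uninjured muscle, where its log2 ratio to Cpt1a was -2.98. Reads lost to an overlapping gene cannot be told apart from a low level here. Widespread forms that were not called were Slc16a1 (-0.56 ± 0.32), Phkg2 (0.21 ± 0.18), Acaca (-0.12 ± 0.16) and Cav1. With library size alone Slc16a1 (0.73) and Acaca (1.19) were called higher. Phkg2 and Cav1, whose values with that scaling are not given here, could be called higher too. The other pairs lay between these, and 28 of the 29 are shown in the plot of pairs.

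**Figure D3:**
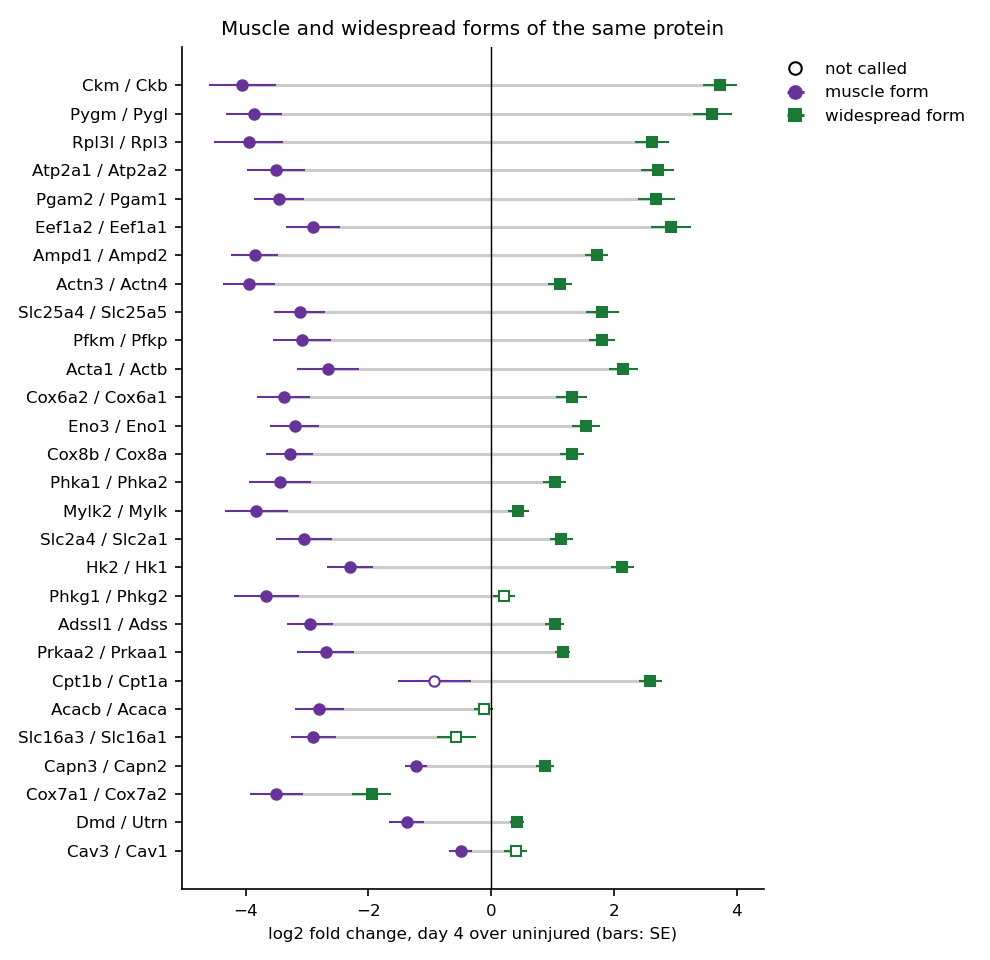
Log2 fold change of day 4 over uninjured muscle (horizontal axis, bars are SE) for the muscle form (purple circles) and the widespread form (green squares) of 28 proteins, ordered by the change of their ratio. Open symbols were not called. The muscle form lay left of the widespread form in every pair, from Ckm and Ckb at the top to Cav3 and Cav1 at the bottom.

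Excitation-contraction coupling genes, which turn the action potential into calcium release, fell almost as a block. Of 23 tested, 21 fell and 1 rose, with a median of -2.42 that stayed negative with library size alone (-1.14). Ryr1, the calcium release channel, had 543 to 1356 CPM (median 1135) at day 4 and 4191 to 8457 CPM (median 6914) in uninjured muscle (-2.61 ± 0.28). The groups were far apart, and the lowest value was again that of female day 4 replicate 2 (543 CPM). Trdn, which tethers calcium stores to that channel, changed by -3.37 ± 0.44, and Jph1, which holds the 2 membrane systems together, by -3.14 ± 0.36. The member that rose was Casq2, the calcium store protein of heart and slow fibres, with 278 to 455 CPM (median 327) at day 4 and 19.4 to 65.3 CPM (median 43.9) in uninjured muscle (3.10 ± 0.26). Its fast-fibre relative Casq1 changed by -3.07 ± 0.41.

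Regulators of muscle metabolism were lower in 20 and higher in 4 of 27, with a median of -0.98 that was 0.32, and 13 higher and 5 lower with library size alone. Mafa, a factor linked to the fastest fibre type, changed by -2.72 ± 0.22, the fatty acid sensor Ppara by -2.42 ± 0.48 and Esrra, a nuclear receptor that drives mitochondrial genes, by -2.26 ± 0.19. Its coactivator Ppargc1a had 5.45 to 12.3 CPM (median 9.42) at day 4 and 19.2 to 42.2 CPM (median 28.4) in uninjured muscle (-1.70 ± 0.33). Prox1 (2.65 ± 0.26), a factor of muscle and of lymphatic vessels, and Tead4 (2.03 ± 0.20), a factor of differentiating myoblasts, rose. The genes of the circadian clock were lower in 16 of 19 and higher in 1. Their median of -1.31 was -0.02, and 5 higher and 3 lower with library size alone. The repressor Nr1d1 had 25.7 to 71.2 CPM (median 60.7) at day 4 and 136 to 314.5 CPM (median 248) in uninjured muscle (-2.12 ± 0.29). Arntl, the core activator, changed by -1.84 ± 0.25 and Hlf, a clock output factor, by -2.08 ± 0.46, whereas Clock (-0.18 ± 0.12) and Per2 (0.01 ± 0.35) were not called. With library size alone Clock was called higher (1.13). The hour at which muscle was taken is not given in the labels, so time of day and injury cannot be told apart.

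In nucleotide and one-carbon synthesis 11 of 25 were higher and 9 lower, shares close to those of all genes (19 higher and 1 lower with library size alone). Of the serine pathway, which supplies carbon for nucleotides, Phgdh (4.26 ± 0.37) and Psat1 (4.85 ± 0.34) rose, and Psat1 had 36.5 to 76.3 CPM (median 44.5) at day 4 and 1.01 to 2.39 CPM (median 1.64) in uninjured muscle. The last enzyme of that pathway, Psph, changed by -1.37 ± 0.13, and by -0.07 with library size alone. The mitochondrial folate enzymes Mthfd2 (2.21 ± 0.23) and Mthfd1l (4.66 ± 0.36) rose, as did Tyms (4.21 ± 0.29), which makes thymidylate, and Rrm2 (5.52 ± 0.37), the ribonucleotide reductase subunit of dividing cells. Adsl, an enzyme of purine synthesis and of the purine nucleotide cycle of working muscle, had 29.8 to 62.9 CPM (median 55.4) at day 4 and 129 to 260.3 CPM (median 218) in uninjured muscle (-1.95 ± 0.24). Of 23 ribosome biogenesis factors 6 were higher and 8 lower, and this rests on the scaling, as there were 20 higher and 0 lower with library size alone. Npm1 (1.45 ± 0.21) and Nop58 (1.43 ± 0.18) rose, and Rrp12 changed by -1.17 ± 0.16, a fall that became a rise with library size alone (0.14).

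Of 25 genes of protein folding and its stress response in the endoplasmic reticulum 16 were higher and 5 lower (20 higher and 1 lower with library size alone). The collagen chaperone Serpinh1 had 596 to 1112 CPM (median 872) at day 4 and 59.5 to 97.6 CPM (median 80.9) in uninjured muscle (3.43 ± 0.33), and Fkbp10, which also acts on collagen, rose by 4.58 ± 0.36. The disulfide isomerase Pdia3 rose by 2.74 ± 0.33 and the general chaperone Hspa5 by 0.79 ± 0.23. Of the targets of the stress factor ATF4, Asns, asparagine synthetase, rose by 3.63 ± 0.26, whereas Chac1, which degrades glutathione, had 3.13 to 23.6 CPM (median 14.1) at day 4 and 38.5 to 146 CPM (median 74.9) in uninjured muscle (-2.61 ± 0.47). Herpud1, of protein disposal from this compartment, changed by -1.65 ± 0.26. In the proteasome list 16 of 25 were lower and 3 higher, with a median of -0.50 (0.80, and 19 higher and 1 lower with library size alone). The 3 that rose, Psmb8 (1.29 ± 0.32), Psmb9 (1.47 ± 0.28) and Psme2 (0.61 ± 0.18), belong to the immunoproteasome or its activator, which interferon induces. Other listed members of these kinds, Psmb10 and Psme1, were not called higher. The activator gene Psme4 changed by -1.87 ± 0.24 and the standard catalytic subunit gene Psmb7 by -1.32 ± 0.26 (-0.02 with library size alone). Cholesterol synthesis and uptake was higher in 10 and lower in 5 of 20 (18 higher and 1 lower with library size alone). The master regulator Srebf2 (2.33 ± 0.19) and Sqle, squalene epoxidase (2.21 ± 0.26), rose, and Fdft1, squalene synthase, the step before it, changed by -2.06 ± 0.26.

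Clearance genes of phagocytes were high. Of 24 genes of phagocytosis 18 were higher and 3 lower (median 2.91). The signalling adaptor Tyrobp had 179 to 238 CPM (median 219.8) at day 4 and 1.25 to 2.70 CPM (median 1.56) in uninjured muscle (6.97 ± 0.54), its partner Fcer1g rose by 6.81 ± 0.51 and the scavenger receptor Msr1 by 6.83 ± 0.53. The receptors for dying cells Axl (2.97 ± 0.20) and Mertk (2.56 ± 0.20) rose, while their bridging ligand Gas6 changed by -0.42 ± 0.16, which became 0.87 with library size alone. In the lysosome list 23 of 31 were higher and 1 lower (median 1.63). Acp5, the tartrate-resistant phosphatase, had 36.0 to 66.1 CPM (median 55.4) at day 4 and 0.241 to 1.02 CPM (median 0.375) in uninjured muscle (6.79 ± 0.61). The cathepsin Ctsh rose by 4.17 ± 0.34 and progranulin, Grn, by 4.05 ± 0.38. The member that fell was Gaa, which breaks down glycogen in lysosomes, with 104 to 195 CPM (median 178) at day 4 and 423 to 574 CPM (median 557.5) in uninjured muscle (-1.64 ± 0.22). With library size alone 0 genes of this list were called lower.

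Members of the phagocyte NADPH oxidase rose. The catalytic subunit gene Cybb had 84.6 to 122 CPM (median 98.3) at day 4 and 0.583 to 2.57 CPM (median 0.826) in uninjured muscle (6.62 ± 0.54), Ncf1 rose by 6.07 ± 0.43, Ncf4 by 5.74 ± 0.54, Cyba by 3.80 ± 0.36 and Rac2 by 5.61 ± 0.50. The mitochondrial defence genes Sod2 (-2.42 ± 0.32) and Prdx3 (-1.69 ± 0.33) fell, and Sod2 had 52.9 to 105 CPM (median 96.2) at day 4 and 340.0 to 559.8 CPM (median 518) in uninjured muscle. The secreted dismutase Sod3 rose by 2.96 ± 0.25. Over the list 13 of 25 were higher and 6 lower (19 higher and 1 lower with library size alone, so at most 1 of these falls stayed called). Of 20 iron and haem genes 7 were higher and 8 lower, shares near those of all genes (16 higher and 1 lower with library size alone). Hmox1, which breaks down haem, had 173 to 904 CPM (median 301.5) at day 4 and 6.17 to 13.8 CPM (median 10.4) in uninjured muscle (5.17 ± 0.48), and Slc11a1, a metal transporter of phagosomes, rose by 6.15 ± 0.43. The ferritin chains differed, as Ftl1 rose by 3.25 ± 0.36 and Fth1 changed by -0.76 ± 0.25, or 0.54 with library size alone. The haem synthesis enzymes Alas1 (-1.84 ± 0.27) and Fech (-1.37 ± 0.22) fell with TMM. At most 1 of them stayed called lower with library size alone. Reads of Ftl1 and Fth1 may be shared with processed copies.

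Inflammasome and lytic cell death genes were higher in 19 of 21 and lower in 1 (median 2.82). Of the sensor genes, Nlrp3, Nlrc4 and Nlrp1b were near 0 in uninjured muscle, while Aim2, a sensor of DNA in the cytosol, was measurable there and rose by 2.98 ± 0.30. Nlrp3 had 3.86 ± 1.09 CPM at day 4 against 0.0731 ± 0.0958 CPM, Nlrc4 2.30 ± 0.541 CPM at day 4 against 0.0400 ± 0.0438 CPM and Nlrp1b 12.9 ± 1.69 CPM at day 4 against 0.0681 ± 0.0609 CPM in uninjured muscle, the last of which may share reads with its paralogs. The protease Casp1 rose by 3.73 ± 0.36, the pore gene Gsdmd by 2.14 ± 0.23, the membrane rupture gene Ninj1 by 1.64 ± 0.24 and the necroptosis genes Ripk3 and Mlkl by 3.52 ± 0.27 and 2.82 ± 0.29. The death receptor Fas changed by -0.99 ± 0.17, which became 0.31 with library size alone.

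Eicosanoids are lipid signals made from arachidonic acid. Of 21 genes of their synthesis and receptors 17 were higher and 0 lower (median 4.11). Pla2g4a, which frees arachidonic acid, rose by 4.32 ± 0.40. On the leukotriene branch Alox5 rose by 4.11 ± 0.39 and its activator Alox5ap had 54.1 to 106 CPM (median 70.9) at day 4 and 1.97 to 4.58 CPM (median 2.75) in uninjured muscle (4.55 ± 0.40). On the prostaglandin branch the inducible cyclooxygenase Ptgs2 had 3.46 ± 1.79 CPM at day 4 and 0.188 ± 0.347 CPM in uninjured muscle, and the constitutive Ptgs1 rose by 0.74 ± 0.18 with overlapping groups. Hpgds, a prostaglandin D synthase of immune cells, had 29.4 to 48.1 CPM (median 40.0) at day 4 and 0.0833 to 0.643 CPM (median 0.507) in uninjured muscle (6.53 ± 0.44). Ptgds, another such synthase, had 4.07 ± 0.337 CPM at day 4 and 0.0272 ± 0.0422 CPM in uninjured muscle. Fpr2, a receptor for resolving and inflammatory ligands, had 2.29 ± 0.772 CPM at day 4 and 2 counts in all uninjured libraries, a ratio of 162-fold (44.6 to 1336) by counts.

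Brakes on inflammation were raised alongside. 15 of 22 were higher and 2 lower, with a median of 2.53, or 2.37 with genes near 0 counts at their bounds. The interleukin 1 receptor antagonist Il1rn had 24.9 ± 7.96 CPM at day 4 and 0.363 ± 0.805 CPM in uninjured muscle, and the inhibitory receptor Havcr2 12.6 ± 2.52 CPM at day 4 and 0.0287 ± 0.0446 CPM in uninjured muscle. Lilrb4a, another inhibitory receptor, which may share reads with a close relative, had 84.8 to 113 CPM (median 99.3) at day 4 and 0.0417 to 1.93 CPM (median 0.533) in uninjured muscle (7.29 ± 0.55). The receptor for interleukin 10, Il10ra, rose by 5.94 ± 0.36. The cytokine gene Il10 had 0 counts in uninjured muscle and 1.27 ± 0.355 CPM at day 4, at least 29.9-fold higher than the floor of 6 counts over the group. Tsc22d3, a glucocorticoid target, changed by -1.47 ± 0.27, but with library size alone 0 genes of this list were called lower.

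Growth factors that act on muscle stem cells were higher in 18 of 27 and lower in 3 (median 0.87, and 23 higher and 0 lower with library size alone). Hgf, which wakes resting stem cells, had 2.87 ± 0.697 CPM at day 4 and 2 counts in all uninjured libraries, a ratio of 205.5-fold (56.8 to 1699) by counts. Igf2, a fetal growth factor, had 451 to 762 CPM (median 498) at day 4 and 37.3 to 65.1 CPM (median 57.7) in uninjured muscle (3.36 ± 0.35), and Igf1 rose by 2.52 ± 0.33. The binding protein gene Igfbp2 had 13.3 ± 5.49 CPM at day 4 and 0.0424 ± 0.0703 CPM in uninjured muscle. The cytokine Osm, which can return stem cells to rest, had 2.83 ± 0.477 CPM at day 4 and 0.0428 ± 0.0472 CPM in uninjured muscle. Fgf1 changed by -1.98 ± 0.47. The imprinted growth network, which is high in fetal tissue, was higher in 12 of 16 and lower in 2 (median 2.13, and 15 higher and 0 lower with library size alone). Mest had 102 to 324 CPM (median 196) at day 4 and 0.967 to 3.45 CPM (median 2.11) in uninjured muscle (6.57 ± 0.55), Plagl1 rose by 4.32 ± 0.26 and Peg10 by 4.32 ± 0.42.

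In Wnt signalling, 12 of 28 were higher, a share near that of all genes, and 6 lower (23 higher and 1 lower with library size alone). With TMM the secreted inhibitors went both ways, but only 1 gene of this list was called lower with library size alone. Dkk3 changed by -1.40 ± 0.42, whereas Sfrp1 rose by 3.43 ± 0.40 and Sfrp2, which binds Wnt ligands, had 50.3 to 239 CPM (median 121) at day 4 and 0 to 0.527 CPM (median 0.194) in uninjured muscle (9.14 ± 0.75). The matricellular Ccn4 rose by 7.05 ± 0.52. The ligand Wnt4 had 0.932 to 16.2 CPM (median 4.82) at day 4 and 83.6 to 163 CPM (median 126) in uninjured muscle (-4.31 ± 0.53). That was the steepest fall among the tested members of the 39 lists. Axin2, a common target of the pathway, was not called (-0.40 ± 0.23), but was called higher with library size alone (0.89). In Notch signalling 10 of 19 were higher and 4 lower (16 higher and 0 lower with library size alone). Hes6 (2.70 ± 0.25), Dtx4 (2.58 ± 0.21) and Notch2 (2.40 ± 0.26) rose. Of the direct targets, Hes1 (-0.20 ± 0.23) and Hey1 (-0.13 ± 0.16) were not called, though both were called higher with library size alone (1.10 and 1.17). The direct targets were not alike, as Heyl had 23031 unscaled counts at day 4 and 1900 in uninjured muscle. Those of Hes1 were 7437 and 3025. Among targets and cofactors of the Hippo pathway, 7 of 12 were higher and 3 lower (11 higher and 1 lower with library size alone). The targets Ankrd1 (3.49 ± 0.38) and Ccn2 (3.19 ± 0.42) rose, and the muscle cofactor Vgll2 changed by -2.08 ± 0.22.

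Immediate early genes, which respond to signals within minutes, were higher in 15 of 23 and lower in 3 (19 higher and 1 lower with library size alone). Egr3 (3.31 ± 0.42), Fosb (2.91 ± 0.50) and Egr2 (2.82 ± 0.33) rose, and Nr4a1 had 22.8 to 62.1 CPM (median 48.8) at day 4 and 182.5 to 374 CPM (median 243) in uninjured muscle (-2.46 ± 0.39). In the p53 and senescence list 9 of 18 were higher and 5 lower (14 higher and 1 lower with library size alone). The cell cycle inhibitor Cdkn1a had 333 to 524.5 CPM (median 400.4) at day 4 and 16.2 to 123 CPM (median 57.4) in uninjured muscle (2.94 ± 0.37). Cdkn2a, an inhibitor tied to senescence, had 4.06 ± 1.11 CPM at day 4 and 2 counts in all uninjured libraries (291-fold (80.5 to 2407) by counts), and the stress hormone gene Gdf15 had 6.74 ± 0.804 CPM at day 4 and 0.0709 ± 0.103 CPM in uninjured muscle. Further p53 targets went both ways with TMM, while only 1 gene of the list was called lower with library size alone. Eda2r rose by 2.42 ± 0.20, Plk3 by 1.80 ± 0.34, Sesn2 by 1.48 ± 0.25 and Bbc3 by 1.46 ± 0.20, while Ccng1 changed by -2.58 ± 0.30, Phlda3 by -1.60 ± 0.31 and Aen by -1.60 ± 0.19.

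Genes of the actin cytoskeleton of moving cells were higher in 23 of 24 (median 2.49), and Myl9 was not called (0.05 ± 0.22). Lcp1, an actin bundler of leukocytes, had 175 to 344 CPM (median 216) at day 4 and 2.08 to 5.77 CPM (median 3.04) in uninjured muscle (6.13 ± 0.49). The actin-binding peptide gene Tmsb10 rose by 5.66 ± 0.36 and Coro1a by 4.86 ± 0.40. In the hyaluronan and chondroitin sulfate list 16 of 21 were higher and 1 lower (median 2.34). The synthase Has2 had 5.05 to 18.1 CPM (median 6.97) at day 4 and 0 to 0.401 CPM (median 0.141) in uninjured muscle (5.70 ± 0.64), while the synthase Has3 changed by -1.14 ± 0.32 (0.15 with library size alone). The hyaluronan-cutting Cemip had 7.08 ± 3.22 CPM at day 4 and 0.0440 ± 0.0483 CPM in uninjured muscle, and the receptor Hmmr, also a gene of dividing cells, 11.9 ± 3.46 CPM at day 4 and 0.0464 ± 0.0638 CPM in uninjured muscle.

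In the hypoxia response 4 of 18 were higher and 8 lower, with a median of -0.12 (1.19, and 11 higher and 5 lower with library size alone). Hif1a, the oxygen-regulated factor, rose by 1.71 ± 0.23. Its glycolytic target Pfkfb3 had 30.3 to 52.2 CPM (median 36.3) at day 4 and 121 to 860.2 CPM (median 302) in uninjured muscle (-3.15 ± 0.50), the oxygen sensor Egln1 changed by -2.93 ± 0.30 and the vessel growth factor Vegfa had 40.7 to 175 CPM (median 121) at day 4 and 363 to 813 CPM (median 574.5) in uninjured muscle (-2.29 ± 0.48). In angiogenic signalling 9 of 21 were higher and 7 lower, shares near those of all genes (18 higher and 2 lower with library size alone). Vegfb (-2.73 ± 0.26) and the receptor Flt1 (-1.90 ± 0.26) fell, and the tip cell peptide Apln (2.95 ± 0.29) and the chemokine receptor Cxcr4 (4.10 ± 0.30), which leukocytes also carry, rose. The list median was 0.10, and without female day 4 replicate 2 it was -0.0048, with 7 higher and 7 lower.

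**Figure D4:**
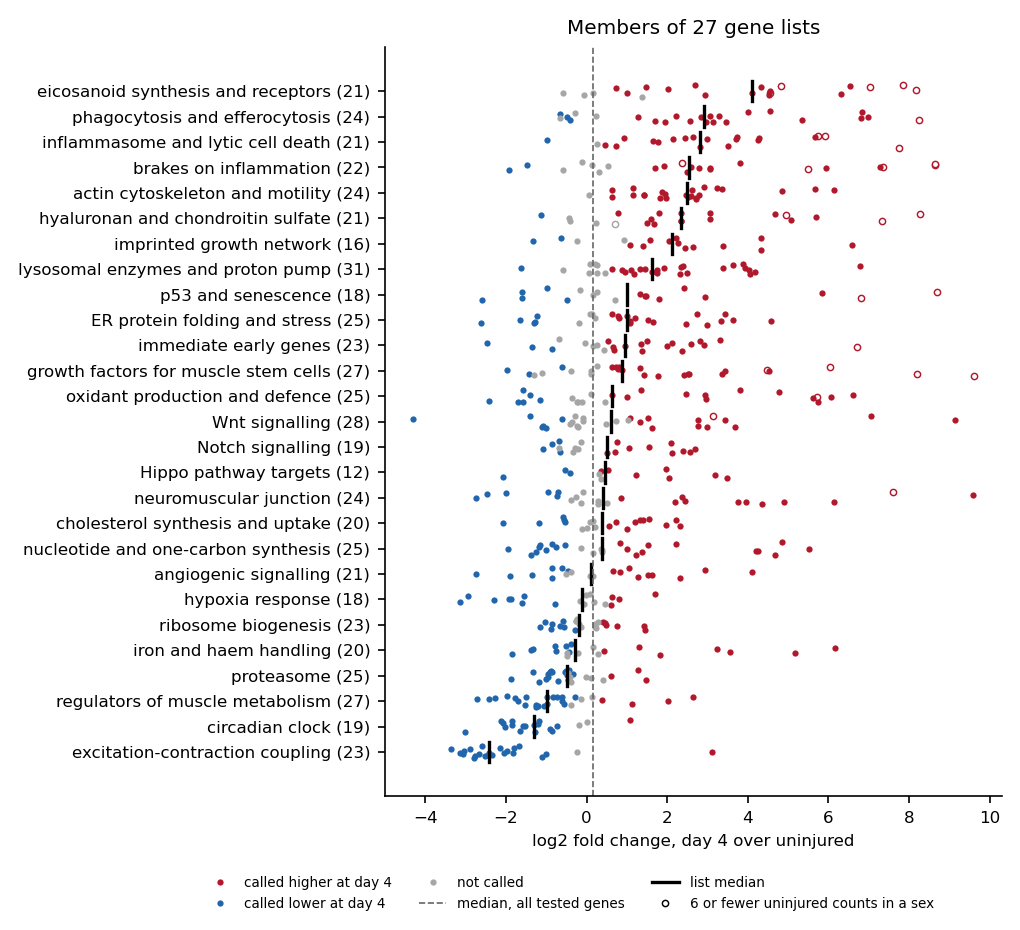
Log2 fold change of day 4 over uninjured muscle (horizontal axis) of each tested member of 27 gene lists, with the number tested in brackets. Red points were called higher, blue points lower and grey points not called, and open circles had 6 or fewer uninjured counts in a sex, so that their fitted values depend on the prior count. Black bars are list medians and the dashed line is the median of all tested genes, 0.17.

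Markers of cell types moved with these lists, and their part in each result was not tested. The 10 macrophage markers were all called higher, with summed levels of 2961 to 4338 CPM at day 4 and 48.3 to 70.1 CPM in uninjured muscle. Muscle fibre markers were lower in 8 of 10, with sums of 8200.0 to 44660.0 CPM at day 4 and 220400.0 to 306200.0 CPM in uninjured muscle. Endothelial markers were lower in 5 of 8 and higher in 0, with sums of 442.5 to 624 CPM at day 4 and 569.6 to 983 CPM in uninjured muscle, and their median of -0.69 was 0.61, with 6 higher and 0 lower with library size alone. T cell markers were higher in 7 of 8 but low, with sums of 8.90 to 16.4 CPM at day 4 and 1.21 to 2.49 CPM in uninjured muscle. Of 8 B and plasma cell markers 2 were higher and 3 lower (sums of 11.9 to 21.3 CPM at day 4 and 3.62 to 12.2 CPM in uninjured muscle), and mast cell markers in 2 and 3 of 8 (sums of 22.9 to 27.6 CPM at day 4 and 20.8 to 33.7 CPM in uninjured muscle). There were 3 higher and 0 lower with library size alone among B and plasma cell markers, and 3 higher and 0 lower with library size alone among mast cell markers.

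Schwann cells wrap the motor nerve, and their list was mixed, with 5 of 14 higher and 7 lower (8 higher and 1 lower with library size alone). The myelin gene Prx fell (-1.81 ± 0.37). Gap43 (2.19 ± 0.44) and Artn (2.23 ± 0.51), genes of repairing nerve, rose but were low at day 4, at 0.972 ± 0.101 CPM and 0.731 ± 0.238 CPM. Sums were 93.0 to 133 CPM at day 4 and 98.3 to 359 CPM in uninjured muscle. Tendon markers were higher in 6 of 9 (sums of 209.5 to 488 CPM at day 4 and 93.4 to 326 CPM in uninjured muscle), with Scx, a tendon transcription factor, at 1.77 ± 0.32. Of 15 adipocyte markers 2 were higher and 5 lower (4 higher and 1 lower with library size alone), and the defining Adipoq was not called, with 0.540 ± 0.324 CPM at day 4 and 0.511 ± 0.559 CPM in uninjured muscle. Of 8 platelet markers 5 were higher and 1 lower, led by Pf4 (5.56 ± 0.44), which macrophages also make. Their median was 1.51, or 1.07 with genes near 0 counts at their bounds. Males alone gave 3 higher and 1 lower (median 0.32), and females alone 6 and 1 (median 2.73). The erythroid list gave 1 higher of 4, with haemoglobin genes at or near 0 counts, and the keratinocyte list 1 higher and 1 lower of 5 (3 higher and 0 lower with library size alone), with Krt5 and Krt14 too low to be tested.

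The 12 steepest falls and 12 steepest rises were taken among genes without a predicted-gene name, and rises only where each sex of the uninjured libraries held more than 6 counts. Genes nearer to 0 in uninjured muscle, such as R3hdml, Cd180 and Igfbp2, are therefore not among the rises. Among falls were Timp4, Kcng4, Ces1d, Klhl33, Smox, Pvalb and Mybpc2. Others were Odf3l2 (-6.98 ± 0.82), Gdap1 (-4.45 ± 0.62), a mitochondrial gene mutated in a human neuropathy, Tlcd3b (-4.43 ± 0.46) and Arrdc2 (-4.43 ± 0.44). Among rises were Spp1, Trem2, the macrophage marker Ms4a7, Ctss and the embryonic myosin Myh3. Others were Gpnmb (8.22 ± 0.68), a glycoprotein of phagocytes that digest debris, C3ar1 (8.34 ± 0.55), a receptor for a complement fragment, Mpeg1 (8.15 ± 0.57), a macrophage pore protein, Ms4a6d (8.17 ± 0.69) and C1qtnf3 (8.15 ± 0.69), a secreted relative of complement. The groups did not overlap in any of these, since the rule required it.

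The response of females was compared with that of males. Few genes were called. edgeR called 7 (0.0408%) with a larger rise or smaller fall in females and 1 (0.00584%) with the opposite, while 1312 had an unadjusted p under 0.05. In Cdk19, a kinase of the Mediator complex, the sex difference in response was 1.84 ± 0.29 (adjusted p = 0.00964). Its levels at day 4 were 21.6 to 28.7 CPM in females and 21.3 to 23.8 CPM in males, and uninjured levels were 15.8 to 18.6 CPM in females and 34.4 to 80.5 CPM in males. The sexes overlapped at day 4, and uninjured females were lower than all uninjured males. Cbr2, a carbonyl reductase, gave 2.30 ± 0.42, with 22.8 to 52.1 CPM in females and 34.4 to 45.5 CPM in males at day 4, and uninjured levels of 12.3 to 16.0 CPM in females and 55.9 to 88.4 CPM in males. B3gat1 and Bco2 had no counts in uninjured females and under 1 CPM in uninjured males, as did Pbx4, so their fitted values depend on the prior count. Ripor2 (2.48 ± 0.47) and Vasp (1.87 ± 0.36), an actin regulator, were the other 2 of the 7. Vasp had 96.2 to 169.8 CPM in females and 79.5 to 124 CPM in males at day 4, and 18.4 to 20.4 CPM in females and 40.8 to 70.1 CPM in males in uninjured muscle. Selenbp1, a selenium-binding protein, had 7.30 to 9.75 CPM in females and 9.31 to 11.1 CPM in males at day 4, and uninjured levels of 58.9 to 66.8 CPM in females and 16.5 to 22.8 CPM in males (-1.88 ± 0.35, adjusted p = 0.0437). The next genes by p with a lower response in females than in males, Csrp3, Myoz2 and Tgtp2, were not called (adjusted p = 0.188, 0.211 and 0.211). Of the members of the 39 lists, 0 were called in this comparison. These calls were not stable. A fit with the 12 libraries alone called 1 gene, DESeq2 called 41, and leaving out any 1 of 4 libraries (female day 4 replicate 2, male day 4 replicate 1, female uninjured replicate 1 or female uninjured replicate 3) left none called by edgeR, with 855 to 1225 genes at an unadjusted p under 0.05. Leaving out any 1 of the other 26 libraries, those of later days included, left 3 to 11.

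Day 4 was also set against the mean of days 7, 11 and 15 in injured muscle. edgeR called 4684 genes (27.3%) higher and 4658 (27.2%) lower at day 4. With library size alone 5964 were higher and 3177 lower, so this balance rests partly on the scaling. The splits of lists against the later days could move too. Among the genes highest above the later days were Arg1, Spp1, R3hdml, Cd180, Ccl2 and Gpnmb. Spp1, which encodes osteopontin, averaged 1805 ± 596 CPM at day 4, 278 ± 314 at day 7, 88.8 ± 100.2 at day 11 and 22.2 ± 9.91 at day 15 (4.54 ± 0.40 for day 4 against the later days, SD over 6 libraries each). Arg1, an enzyme that breaks down arginine, had 7.43 to 107 CPM (median 19.4) at day 4 and gave 4.85 ± 0.39. The chemokine Ccl2 gave 3.02 ± 0.32. R3hdml gave 3.39 ± 0.35, Cd180, a surface protein of B cells and myeloid cells 3.15 ± 0.36 and Gpnmb 3.01 ± 0.36. The genes furthest below the later days were Spon2, Hmcn2, Meg3, Zfp185, Clec3b, Klhl33, Chrne and Nctc1. Meg3, a maternally expressed long noncoding RNA, averaged 282 ± 82.3 CPM at day 4, 2170.0 ± 1360.0 at day 7, 2366 ± 786 at day 11 and 1993 ± 569.8 at day 15 (-2.94 ± 0.36), against 133 ± 55.6 in uninjured muscle. Spon2, a matrix protein, gave -3.83 ± 0.50, Hmcn2 -3.10 ± 0.35, Zfp185 -2.90 ± 0.28, Clec3b -2.81 ± 0.34, Klhl33 -2.65 ± 0.45 and Nctc1, a noncoding transcript next to H19, -2.62 ± 0.35.

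Receptor subunits took different courses. Chrng averaged 200.3 ± 31.8 CPM at day 4, 75.9 ± 41.5 at day 7, 46.4 ± 18.0 at day 11 and 21.2 ± 4.78 at day 15, against 0.302 ± 0.199 in uninjured muscle (2.27 ± 0.20 for day 4 against the later days). Chrne averaged 8.08 ± 4.21 CPM at day 4, 44.2 ± 15.8 at day 7, 45.9 ± 13.2 at day 11 and 61.6 ± 16.3 at day 15, against 56.6 ± 32.0 in uninjured muscle (-2.64 ± 0.43). Chrnd did not pass the test against the later days (0.26 ± 0.24). Ckb gave 1.77 ± 0.19 and Ckm -0.45 ± 0.41, so the muscle creatine kinase was not called different between day 4 and the later days. Among lists, 26 of 31 lysosomal genes were higher at day 4 than later and 0 lower, as were 19 and 0 of 24 actin cytoskeleton genes and 19 and 2 of 25 genes of nucleotide and one-carbon synthesis. Notch signalling gave 6 higher and 11 lower of 19, and Schwann cell markers 1 and 10 of 14. The later libraries had total counts down to 13089999, below those of day 4. They include a library labelled female day 11 replicate 3 whose Xist and Y-linked transcripts went against its labelled sex, and without it the counts were 5145 higher and 4336 lower.

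**Figure D5:**
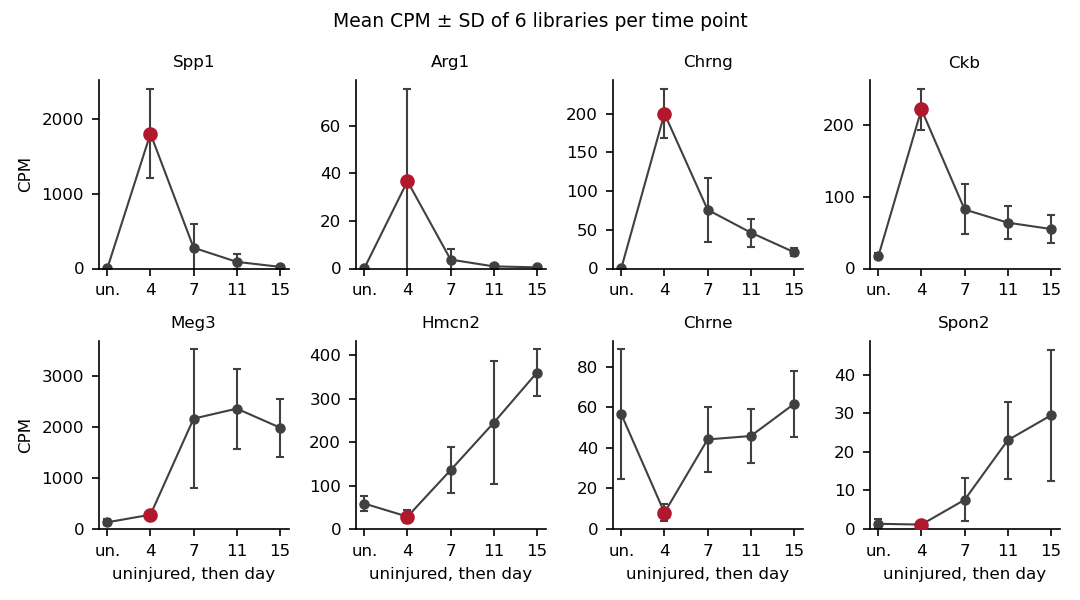
Mean CPM (vertical axes, from 0) with SD over 6 libraries in uninjured muscle and at days 4, 7, 11 and 15, for 8 genes. Day 4 is marked in red, and error bars that would pass below 0 are cut there. Spp1, Arg1, Chrng and Ckb had their highest mean at day 4, and Hmcn2, Chrne and Spon2 their lowest, while Meg3 was 282 CPM at day 4 and 2170.0 CPM at day 7. Spon2 was not called against uninjured muscle (-0.16 ± 0.54), with means of 1.165 CPM at day 4 and 1.369 CPM in uninjured muscle.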

How the data were processed

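Muscle RNA was measured in 6 day 4 and 6 uninjured libraries of mouse tibialis anterior, which were fitted together with the other 18 libraries of the series. Each deposited file gives whole-number counts of reads by gene symbol. The submitters' processing notes name STAR, edgeR and the mm39 build, with no versions. The sources used here do not give the counting program, the annotation, the strand setting or the treatment of shared reads. Of counts of 1 to 20, 65.5 to 77.5% were even, so both reads of a pair seem to be counted, and the floor was set at 6 counts, or 3 read pairs. Replicates differed by at least 29.4 in chi-square per degree of freedom, and none was a repeat of another.

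From the deposited counts, genes were filtered with filterByExpr, scaled by TMM and fitted with edgeR 4.0.16 in R 4.3.3, with a mean for each of 10 groups. The quasi-likelihood test was adjusted over 17136 genes (Benjamini-Hochberg). Log2 CPM used a prior count of 2. Intervals are 95% and, like the floors, allow for counting error only. The intervals of ratios treat every count as independent. The mates of a read pair are not independent, so these intervals are likely too narrow. In counts simulated for day 4 against uninjured muscle (16204 genes), 17 of 50 genes changed 1.5-fold, 45 of 50 changed 2-fold and 50 of 50 changed 4-fold were called. The simulation gave every gene the same spread and changed few genes, up and down alike, all above 1 CPM. It held no shift in the most abundant genes and no library standing apart. These rates therefore need not hold for the real comparison.

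The 39 lists, 30 pairs (29 tested) and all rules were chosen with earlier results of these data known. Named were the 12 steepest rises and falls with a mean of at least 10 CPM in the higher group, no overlap and no predicted-gene name (rises only with more than 6 uninjured counts in each sex), 3 called members per list with a mean of at least 1 CPM, every tested pair, 4 genes per direction for the sex difference and 8 for the later days. Other members are named for their role, after their values were seen. A few genes that the rules name, and 1 pair, are not reported here, though the counts include them. Of 729 list symbols, 725 were found in the files. As alternatives, RLE or library size alone replaced TMM, the filter was dropped or set at CPM above 1 in at least 3 libraries, and DESeq2, a replicate block, halved counts, a 2-fold threshold, the 12 libraries alone, each sex alone and leaving out each library in turn were run. Promoters are from RefSeq on GRCm38.p6, a different build from that of the counts, and 4 of the 5 receptor subunit genes had one.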

Additional observations from a re-analysis of the deposited data

Results flagged for a closer look

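In groups of 6 libraries, a library was singled out where its gap to the nearest other was more than 0.625 of the group's range (Dixon's criterion at 95%, log2 CPM). Chance does this in about 1 of 20 groups. Of 482 groups of genes named here with over 6 counts, 54 had such a library, 45 at day 4 and 9 in uninjured muscle. Female day 4 replicate 2 was that library in 42. It is 1 library, so these are not separate events, and leaving it out moved the log2 fold changes of these genes by 0.0993 to 0.368 and changed the direction or call of 0 of them.

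It was lowest among muscle forms of the protein pairs for Acta1 at 3496 CPM, Atp2a1 at 1430.0 CPM, Ckm at 321 CPM, Cox6a2 at 48.0 CPM, Cox7a1 at 7.29 CPM, Cox8b at 21.6 CPM, Eef1a2 at 92.4 CPM, Eno3 at 584 CPM, Hk2 at 37.9 CPM, Pgam2 at 179.5 CPM, Pygm at 271 CPM, Rpl3l at 4.43 CPM and Slc2a4 at 14.6 CPM. Set against the other 5 day 4 libraries, Rpl3l lay at 78.7 to 125 CPM there. It was lowest among genes of contraction, the synapse and nerve for Casq1 at 338 CPM, Chrne at 0.209 CPM, Pvalb at 66.7 CPM, Ryr1 at 543 CPM and Scn4a at 33.5 CPM. Set against the other 5 day 4 libraries, Chrne lay at 7.49 to 12.2 CPM there and Pvalb lay at 1272 to 3573 CPM there. It was lowest among clock genes and regulators of metabolism for Hlf at 0.859 CPM, Nr1d1 at 25.7 CPM and Ppara at 1.36 CPM. It was also lowest for Adsl at 29.8 CPM, Clec3b at 0.663 CPM, Fgf1 at 2.10 CPM, Gaa at 104 CPM, Has3 at 0.932 CPM, Hmcn2 at 3.10 CPM, Klhl33 at 3.73 CPM, Nctc1 at 8.79 CPM, Phlda3 at 68.7 CPM, Psmb7 at 135 CPM, Sod2 at 52.9 CPM, Tlcd3b at 1.31 CPM and Vegfb at 26.5 CPM.

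The same library was highest for Alox5 at 14.5 CPM, Asns at 30.2 CPM, Has2 at 18.1 CPM, Hspa5 at 567 CPM, Msr1 at 96.6 CPM, Ncf1 at 79.8 CPM, Npm1 at 600.2 CPM and Rpl3 at 604 CPM. The other 5 held Has2 at 5.05 to 7.58 CPM, Msr1 at 39.0 to 48.2 CPM and Npm1 at 364 to 421 CPM.

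Female day 4 replicate 3 was highest of its group for Mafa at 47.0 CPM (others 30.4 to 35.6). Female uninjured replicate 2 was highest of its group for Atp2a2 at 87.7 CPM (others 29.3 to 38.4). Male day 4 replicate 1 was lowest of its group for Ptgs1 at 7.43 CPM (others 9.87 to 11.4). Male day 4 replicate 3 was lowest of its group for Dkk3 at 6.39 CPM (others 7.90 to 8.92). Male uninjured replicate 1 was lowest of its group for Alas1 at 152 CPM (others 224 to 274), Hk2 at 301.5 CPM (others 418 to 507) and Nr1d1 at 136 CPM (others 241 to 314.5). Male uninjured replicate 2 was highest of its group for Cybb at 2.57 CPM (others 0.583 to 0.975) and Il1rn at 2.00 CPM (others 0 to 0.0886). Male uninjured replicate 2 was lowest of its group for Pla2g4a at 0.0802 CPM (others 0.352 to 0.611). Male uninjured replicate 3 was highest of its group for Axin2 at 13.3 CPM (others 9.32 to 10.5). Male uninjured replicate 3 was lowest of its group for Acta1 at 57150.0 CPM (others 83150.0 to 96260.0). 

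In 8 genes the response to injury differed between the sexes by edgeR's test of the difference (log2, female response minus male response). The values were 7.99 for B3gat1, 1.84 for Cdk19, 7.74 for Bco2, 2.30 for Cbr2, -1.88 for Selenbp1, 2.48 for Ripor2, 6.32 for Pbx4 and 1.87 for Vasp. B3gat1, Bco2 and Pbx4 had 0 counts in uninjured females, so their values depend on the prior count. In Cdk19, Cbr2, Ripor2, Vasp and Selenbp1 the female and male ranges did not overlap in uninjured muscle.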

How the results depend on the processing

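With library size alone as the scaling, 12603 genes were higher and 1482 lower at day 4, and with an added 2-fold threshold 4233 and 2460. With a replicate block 6821 were higher and 5560 lower. RLE scaling, DESeq2, both filters on low counts, halved counts, the 12 libraries alone and each sex alone left both counts within 1.5 times. Leaving out 1 library gave 6538 to 7019 higher and 5459 to 5921 lower, and against the later days 4272 to 5145 higher and 3540 to 4737 lower. The 8 sex differences in response became 41 with DESeq2, 5 with RLE, 5 with library size alone, 4 with no filter, 1 with halved counts, 1 with the 12 libraries alone, 0 with the replicate block (with 1208 genes at an unadjusted p under 0.05) and 0 to 11 without 1 library.

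Replicate numbers gave no sign of pairing, though a weak pairing could go unseen with so few pairs. Residuals of same-numbered libraries had a mean correlation of -0.0172 (6 pairs, -0.1725 to 0.0762) and others 0.0088 (12 pairs, -0.1138 to 0.2247). They were taken about the means of groups of 3 libraries, which limits what such correlations can show.

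Of 247 genes named, 212 kept direction and side of the threshold under every alternative other than library size alone. Under library size alone the log2 fold change turned to 1.19 for Acaca, 1.16 for Agrn, 0.89 for Axin2, 0.81 for Cav3, 0.89 for Cdk19, 1.13 for Clock, 1.22 for Dok7, 0.31 for Fas, 0.54 for Fth1, 0.87 for Gas6, 0.15 for Has3, 1.10 for Hes1, 1.17 for Hey1, 0.15 for Hmcn2, 0.35 for Rapsn, 0.14 for Rrp12, 0.73 for Slc16a1 and 1.24 for Zfp185, and 18 further results kept direction but were not called. The sexes alone gave -0.35 for B3gat1 in males, -0.96 for Cbr2 in males, 0.51 for Cdk19 in females, -0.0776 for Csrp3 in females, -0.63 for Ripor2 in males and -1.21 for Tgtp2 in females. Of list medians, library size alone turned iron and haem handling (1.01), regulators of muscle metabolism (0.32), ribosome biogenesis (1.13), hypoxia response (1.19), proteasome (0.80), Schwann cell (0.98), adipocyte (1.10), mast cell (0.43), keratinocyte (0.89), B and plasma cell (1.01) and endothelial cell (0.61). Males alone turned adipocyte (0.71) and erythroid cell (-0.55), females alone B and plasma cell (0.88), and leaving out female day 4 replicate 2, tried after the data were seen, angiogenic signalling (-0.0048). The causes were not tested.

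Without strand information, antisense and overlapping genes cannot be told apart. Genes near 0 counts in uninjured muscle have ratios limited by the floor of 6 counts.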
